A study of Mus musculus with 10 samples.

Results

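Open chromatin regions shared by young and aged mouse muscle stem cells, but ranking higher among the shared regions of the young cells, are described here. In each age's list of accessible regions, rows that touched or overlapped were merged. A pair was kept where 1 young and 1 aged region overlapped each other and no other region. Every paired region was then ranked within its own list by the −log10 q-value of its strongest summit, written as a percentile from 0 to 100. Members are the pairs whose young percentile lay at least 20 points above the aged one and whose young fold over background was at least 5. This rule found 5200 of 81213 pairs. The pairs held 61.7% of the 131656 young regions and 69.2% of the 117284 aged ones. Members were selected on the young and aged values of the same pair, so those values and every measure tied to them are given as a description, with no test.

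The study profiled open chromatin with a transposase that inserts sequencing adapters where DNA is accessible (ATAC-seq), in muscle stem cells of C57BL/6 mice sorted as α7-integrin and CD34 positive. Young animals were 8 to 20 weeks old and aged animals 20 to 25 months. Cells were kept for 2 h in growth medium with serum and bFGF, with either prostaglandin E2 (PGE2, dissolved in DMSO) or the vehicle, 0.1% DMSO. The labels describe 10 libraries, of which 2 were young with PGE2, 3 aged with PGE2, 2 young with vehicle and 3 aged with vehicle. The regions come from 2 lists, 1 per age, both of cells given PGE2. Vehicle libraries were not analysed here, so an age difference present without PGE2 and one in the response to PGE2 cannot be told apart. With 1 list per age and no values of single libraries, none of the age differences below has a replicate check. How many animals of which sex, how many libraries and what depth stand behind a list was not given in the sources used here. Intervals over regions cover counting error only, since regions of 1 list are not replicates. Limits on fragment counts also cover counting error only, since PCR copies without molecular identifiers are not independent molecules. In bulk material, fewer cells with an open site and less opening per cell cannot be told apart.

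Muscle stem cells lie quiescent against the fibre under its basement membrane, held there by PAX7, Notch signalling and adhesion to the niche, and on injury they divide and turn on myogenic factors that bind E-box motifs. Accessible sites mark promoters, which are open in many cell types, and distal enhancers, which differ more between cell types and states. PGE2 is an injury signal whose receptors include some that raise cAMP. The cell label was checked against 12 muscle stem cell markers, and all 12 had a region within 1 kb of a gene end in both lists, at a median fold of 53.1 for young and 34.9 for aged cells. Markers of other cell types were checked in the same way. Gene-end regions were found for 15 of 18 fibroblast markers in the young and 17 in the aged list, at median folds of 15.5 and 7.69. Smooth muscle and pericyte markers had them for 14 and 13 of 14, at 21.6 and 14.0. Endothelial markers had them for 10 and 8 of 15, at 7.90 and 4.06, with Pecam1, Tie1, Emcn, Vwf and Egfl7 among those without in both. Immune markers had them for 6 of 18 in both, at 12.9 and 7.64, and Ptprc, Csf1r and Itgam had none. Glial and neural markers had them for 11 and 9 of 16, at 13.3 and 12.8. The part of such cells in the ranks was not tested.

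The sequences shown first are those of start sites at which the young list ranked far above the aged. Each is 150 bases directly upstream of a RefSeq start site on GRCm38.p6, the build of the lists, printed 5′ to 3′ on the gene's own strand. The first group is from replication-dependent histone genes, some of which are among the members with the highest young folds. Capitals mark CCAAT and TATAAA, read on either strand, the boxes that bind NF-Y and the TATA-binding protein. H2ac7, H2ac8, H3c11 and H3c2 lie in members, and H1f4 and H2ac6 are neighbours of the same chromosome 13 clusters whose regions ranked nearly alike at both ages.
H2ac7, chr13:23574231-23574380, plus strand: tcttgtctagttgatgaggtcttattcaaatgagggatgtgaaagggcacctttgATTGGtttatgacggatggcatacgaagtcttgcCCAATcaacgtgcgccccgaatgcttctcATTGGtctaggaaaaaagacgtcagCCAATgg
H2ac8, chr13:23571221-23571370, minus strand: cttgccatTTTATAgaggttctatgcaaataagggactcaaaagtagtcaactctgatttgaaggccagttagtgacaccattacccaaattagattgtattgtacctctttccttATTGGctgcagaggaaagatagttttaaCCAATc
H3c11, chr13:21783398-21783547, minus strand: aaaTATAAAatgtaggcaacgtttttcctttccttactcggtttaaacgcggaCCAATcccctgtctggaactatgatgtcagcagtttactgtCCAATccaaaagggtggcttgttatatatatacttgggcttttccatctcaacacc
H3c2, chr13:23752195-23752344, plus strand: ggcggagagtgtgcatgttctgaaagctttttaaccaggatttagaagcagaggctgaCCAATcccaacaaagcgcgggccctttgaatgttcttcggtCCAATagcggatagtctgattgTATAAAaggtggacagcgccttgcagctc
H1f4, chr13:23622559-23622708, minus strand: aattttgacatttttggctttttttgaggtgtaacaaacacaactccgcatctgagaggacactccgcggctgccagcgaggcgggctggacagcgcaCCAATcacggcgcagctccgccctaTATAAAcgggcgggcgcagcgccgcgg
H2ac6, chr13:23683960-23684109, minus strand: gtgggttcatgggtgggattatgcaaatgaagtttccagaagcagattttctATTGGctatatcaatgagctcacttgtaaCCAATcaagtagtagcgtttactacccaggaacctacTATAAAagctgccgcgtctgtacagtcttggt
The boxes are present on both sides of that divide. CCAAT was found in 9 of 11 histone start-site windows that lay in members and in 23 of 25 that lay in other pairs, in windows from 250 bases before to 50 after the start. TATAAA was found in 10 of 11 and in 13 of 25. These windows are not all separate. Those of divergent H2a and H2b genes overlap, as for H2ac8 and H2bc8 in members and H2ac11 and H2bc11 in other pairs. A box in the overlap counts for both genes. Over all 11761 start-site windows in paired regions, 37.1% held CCAAT and 6.47% held TATAAA. A match says only that these letters are there.

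The second group shows gene ends from the members with the largest rank differences, and muscle genes. Capitals mark the GC box GGGCGG, bound by SP factors, in Reln, Tgfa, Usp13 and Areg, and the E-box CANNTG in Cav3 and Synpo2l. Reln, Tgfa and Usp13 are drawn from the 10 gene-end members with the largest gaps. Areg, Cav3 and Synpo2l were chosen after their values were seen.
Reln, chr5:22344706-22344855, minus strand: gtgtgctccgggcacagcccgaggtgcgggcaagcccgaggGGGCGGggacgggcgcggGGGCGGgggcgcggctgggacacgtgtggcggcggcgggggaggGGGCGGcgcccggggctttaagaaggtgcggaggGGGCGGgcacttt
Tgfa, chr6:86195072-86195221, plus strand: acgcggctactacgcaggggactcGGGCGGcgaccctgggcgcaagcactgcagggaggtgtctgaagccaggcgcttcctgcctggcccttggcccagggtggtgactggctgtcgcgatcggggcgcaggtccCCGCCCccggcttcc
Usp13, chr3:32817476-32817625, plus strand: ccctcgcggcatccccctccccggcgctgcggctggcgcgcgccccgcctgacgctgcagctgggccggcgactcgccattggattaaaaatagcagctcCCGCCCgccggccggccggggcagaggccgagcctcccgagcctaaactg
Areg, chr5:91139449-91139598, plus strand: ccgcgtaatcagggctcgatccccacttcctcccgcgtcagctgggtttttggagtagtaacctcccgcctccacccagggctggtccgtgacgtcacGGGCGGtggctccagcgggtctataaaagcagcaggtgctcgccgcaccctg
Cav3, chr6:112459355-112459504, plus strand: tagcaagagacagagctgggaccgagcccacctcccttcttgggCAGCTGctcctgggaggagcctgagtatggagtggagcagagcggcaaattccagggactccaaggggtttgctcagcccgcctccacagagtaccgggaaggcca
Synpo2l, chr14:20668355-20668504, minus strand: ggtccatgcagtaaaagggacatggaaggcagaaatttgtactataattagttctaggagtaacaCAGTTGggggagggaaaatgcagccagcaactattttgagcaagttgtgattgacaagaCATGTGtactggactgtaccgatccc
The GC box stood in 52.3% (95% interval 46.5 to 58.1) of the 300 start-site windows in members. The share was 45.8% of 1922 windows in other pairs with a young fold of at least 5 and a young percentile under 80, the range of most members, and 62.7% of all 11761. The median GC content was 60.3% in members, 57.0% in that range and 61.0% in all. The median ratio of observed to expected CpG was 0.63, 0.53 and 0.76 in the same order. On these 3 measures members sat between their own range and the whole. The E-box form CAGCTG was in 21.7% of members' windows, 19.8% in the same range and 15.7% of all, and CANNTG, which contains it, in 68.0%, 72.7% and 63.7%. Other motifs searched on both strands were AP-1 TGANTCA, at 7.33% in members and 8.74% in their range, and CRE TGACGTCA, at 1.33% and 1.66%. TEAD GGAATG and RUNX TGTGGT were each in 39 of 300 windows of members, and in 15.8% and 14.8% of those in the range. The MEF2 motif had 2.00% and 3.07%, and the NFI motif was in 0 of 300 (upper limit 1.22%) and 3 of 1922 windows. In none of these motifs did the members' interval leave out the share of their own range, apart from the GC box and TATAAA. For the GC box the lower limit of 46.5 stood close to the 45.8% of the range, whose own interval was 43.5 to 48.0. For TATAAA the share was 12.3% (8.83 to 16.6) against 8.79%. Some windows are alternative starts of the same gene or lie with another gene's window in a single region. Such windows are not independent, so these intervals are too narrow. Histone genes held 10 of the 37 member windows with TATAAA, and without them the share was 9.34% (6.25 to 13.3) against 8.70%.

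Members made up 6.4% of all pairs, the background share against which the counts below are read. The mirror rule, with the aged percentile at least 20 points higher and an aged fold of at least 5, gave 3494 pairs or 4.3%. That excess comes with the fold minimum, which 52726 pairs passed by the young fold and 41023 by the aged. Without it the counts were 6375 and 6794, with the aged side larger. The members' median young percentile was 52.3 and the median aged percentile 22.5, with a median gap of 27.6 points (quartiles 23.2 and 34.2). In folds over each list's own background the medians were 7.57 and 3.03. The fold steps of both lists give back whole counts, taken here as fragments, and the median summit pileup was 171 fragments in the young and 62 in the aged list.

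**Figure D1:**
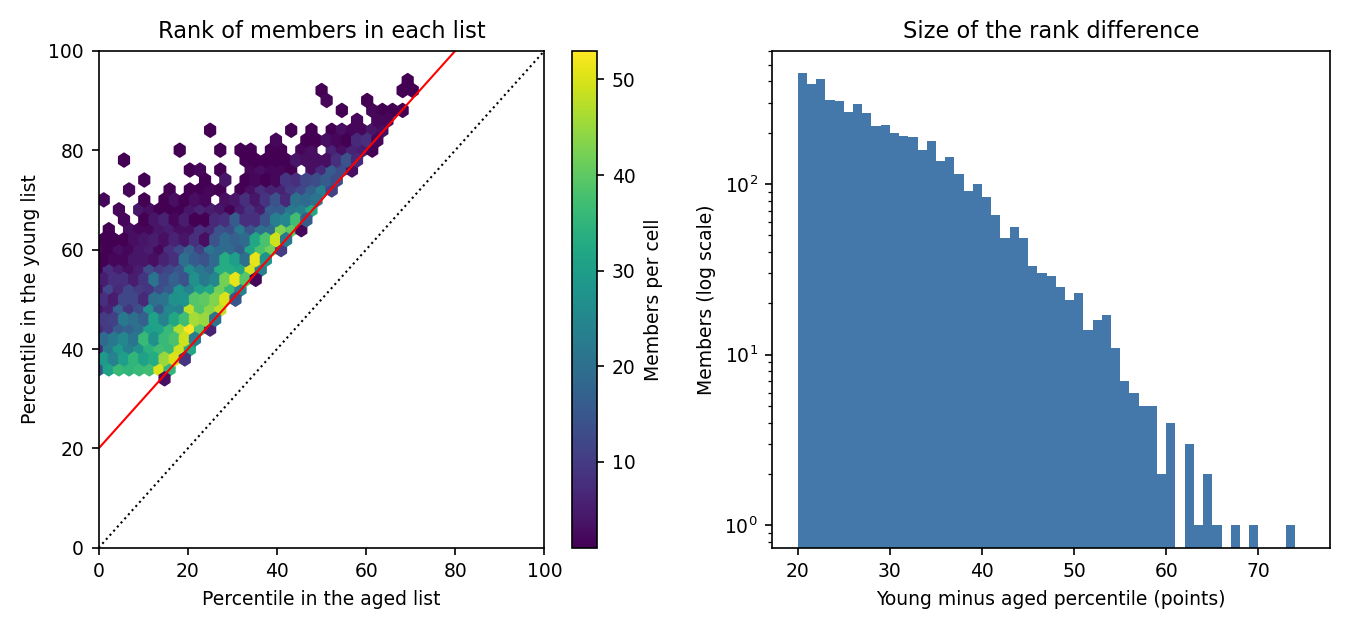
Left, each member's percentile in the aged list (x axis, 0 to 100) against that in the young list (y axis), coloured by the number of members per cell; the red line is the 20-point rule, the dotted line equal rank. Right, the number of members (log scale) by size of the gap in points, which runs from 20.01 to 73.3 with a median of 27.6.

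The rule bounds what a member can be. A fold of 5 stands at the young percentile 35.3, so weaker young regions cannot enter. The share of pairs that were members was 18.8% at young percentiles of 35 to 50, 17.9% at 50 to 60, 12.7% at 60 to 70, 4.55% at 70 to 80 and 0.486% above 80. Just inside the gap threshold, at 20.01 points, lay a region near Ddx52 with folds of 13.8 and 5.24. Just outside it, at 19.99, were regions at Colq and F11r, with folds of 15.0 and 5.53. A region near T, with a young fold of 5.02, was just inside the fold minimum, and one at Fam209, with 4.97, just outside.

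With the young pileup at its lower and the aged pileup at its upper exact 95% Poisson limit, 4783 of 5200 members (92.0%) still ranked higher in the young list. The gap stayed at 20 points or more in 564 (10.8%). Members were selected on this same gap, so these counts are no independent check of a difference. The limits also take fragments as independent, which PCR copies are not.

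In the aged list the same sites were narrow and mostly had 1 summit. The median width was 518 bp in the young and 250 bp in the aged list, with a median ratio of 1.83. The other 47526 pairs with a young fold of at least 5 had medians of 860 and 703 bp and a ratio of 1.16. The aged region lay wholly inside the young one in 90.8% of members and 66.6% of those pairs. A single aged summit was called in 80.3% of members, and a single young summit in 55.1%. In the other pairs with a young fold of at least 5 these shares were 40.4% and 31.7%. The strongest summits nevertheless coincided, with a median shift of 18 bp and 91.3% within 100 bp, against 93.6% in the other pairs. Width follows signal in a peak caller, so it is not independent of the selection.

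**Figure D2:**
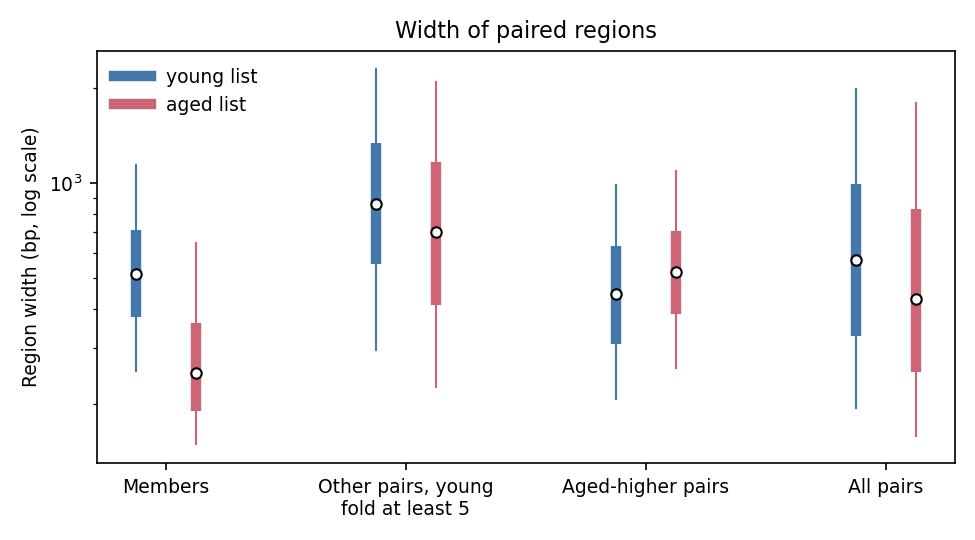
Width of paired regions in bp (log scale) in the young and aged lists for members, other pairs with a young fold of at least 5, pairs ranking higher in the aged list, and all pairs; circles are medians, thick bars quartiles and thin lines the 5th to 95th percentiles. Members have medians of 518 and 250 bp, the widest separation of the 4 sets.

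Members were mostly distal. Of 5200, 490 (9.42%, interval 8.64 to 10.2) lay within 1 kb of either end of a protein-coding gene, 2625 (50.5%) inside a gene away from its ends, and 2085 (40.1%) between genes. The other pairs with a young fold of at least 5 had 20.7% at gene ends, 42.0% inside genes and 37.2% between. Read the other way, members were 4.12% of the 11904 gene-end pairs, under the 6.4% of all pairs. That lower share belongs to the strongest regions. Below the 80th young percentile, members were at gene ends as often as or more often than other pairs of the same rank: 8.31% (7.20 to 9.52) against 5.39% at 35 to 50, 9.24% against 6.61% at 50 to 60, 9.74% against 8.70% at 60 to 70, and 13.5% against 13.2% at 70 to 80. Above 80 the order turned, with 21.5% (13.1 to 32.2) of 79 members against 44.8%. Pairs ranking higher in the aged list were farther from genes, with 3.32% at gene ends and 30.9% over 100 kb from any, against 12.5% of members.

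Around members, regions found in the aged list alone were scarce. Such a region lay within 5 kb of 5.50% (4.90 to 6.15) of members and of 15.4% of the other pairs with a young fold of at least 5. The young list alone had a region within 5 kb of 34.9% (33.6 to 36.2) of members and 32.5% of the others. At the pairs ranking higher in the aged list the figures were 28.2% for aged-only and 18.9% for young-only neighbours. Members also lay beside each other. The next pair along the chromosome was a member for 799 members (15.4%, 14.4 to 16.4), against 6.42% of the other pairs with a young fold of at least 5. The share was 13.3% for members at young percentiles of 35 to 50 and 38.0% (27.3 to 49.6) for the 79 above 80. All of these neighbours were called from the same 2 lists, so a local difference in signal enters each of them.

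**Figure D3:**
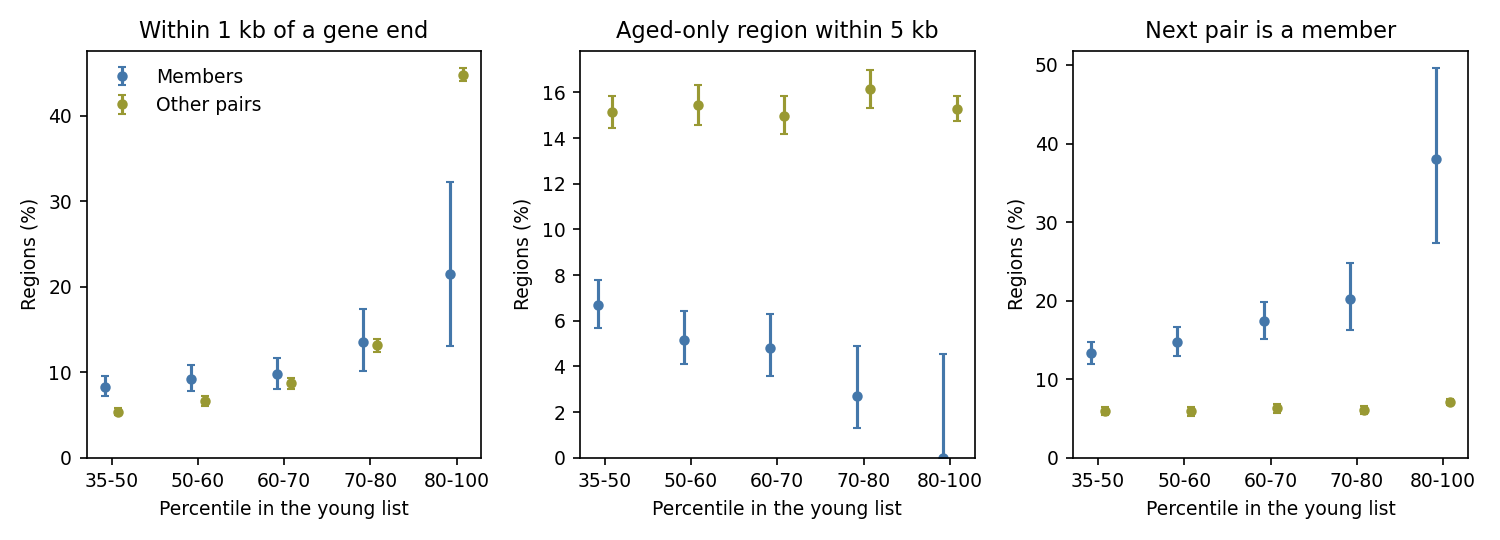
Share of regions (%) within 1 kb of a gene end, with an aged-only region within 5 kb, and followed by a member as the next pair, by percentile in the young list, for members and for other pairs of the same rank; bars are exact 95% intervals over regions. The aged-only share of members is 6.67% at 35 to 50 and 0 of 79 above 80, with an upper limit of 4.56%, while that of other pairs stays between 15.0% and 16.1%.

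Of the members, 1402 stood in runs of 2 or more consecutive pairs. There were 461 runs of 2, 106 of 3, 25 of 4, 6 of 5, 4 of 6 and 1 of 8. The run of 8 spans 362 kb at chr5:66860948-67222886, over Limch1, a gene for an actin-binding protein that activates non-muscle myosin, and on towards Tmem33. All 6 pairs assigned to Limch1 were members. Its gene-end region had a fold of 21.6 in the young and 5.38 in the aged list, and the strongest of the 5 inside the gene had 18.7 and 4.28. The gaps of the 6 ran from 23.7 to 45.0 points, with 28.4 at the gene end. Runs of 6 lay at Gm19410 and Cldn23, at Rapgef5 and Cdca7l, at Dok5, and at Emp1 and Grin2b. Other genes with 6 members were Kcna5 (of 13 pairs), Myo10 (of 30), Nav1 (of 35), Sestd1 (of 23), Prex1 (of 28) and Zbtb7c (of 47), where most pairs were not members. By chromosome the share of pairs that were members was highest on chromosome 19, at 8.15%, and lowest on 13, at 5.06%, and X, at 4.53% (3.62 to 5.60), leaving aside the 14 pairs on Y and the unplaced contigs. The SD over the 19 autosomes was 0.723 percentage points.

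The largest gap in the whole set was at a site inside Trit1, which encodes a tRNA-modifying enzyme, at chr4:123034835-123036136. Its pileup was 417 fragments in the young and 45 in the aged list, folds of 18.4 and 2.21, and its percentile 77.8 against 4.56. Next came sites inside Rassf9 (13.6 and 1.97), Grin2b, a glutamate receptor subunit gene (12.9 and 2.02), and Hsph1, a heat-shock chaperone gene (12.6 and 2.21). All of these were near the bottom of the aged list and in the upper part of the young one. Among gene ends the largest gap, 65.1 points, was at Cracd, a regulator of actin capping, with folds of 13.9 and 2.31. Krtap16-1, a hair keratin-associated protein gene, had 21.2 and 2.84. Dclk2, a microtubule-binding kinase gene, had 11.5 and 2.45, and Usp13, a deubiquitinase gene, 13.6 and 2.79. Genes of secreted proteins were among them. Reln, for the matrix protein reelin, had 13.2 and 2.69, and Tgfa, for an EGF receptor ligand, 10.7 and 2.45. Areg, for another EGF receptor ligand, had 3 members, and the one at its start had 24.0 and 4.13 and a gap of 42.1.

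Histone genes held 4 of the 10 highest young folds among members, at H3c11, H2ac7, H2ac8 and H2ac15. They encode the core histones and linker H1 that package newly copied DNA, and are transcribed mainly in S phase. As a group they were chosen after these values were seen. H2ac7, at chr13:23573401-23575006, had a pileup of 1129 fragments in the young and 104 in the aged list, folds of 49.7 and 5.05. The region shared by H2ac8 and H2bc8 had 42.6 and 5.24. H2ac15 had 39.8 and 5.14, and H3c11 had 55.2 and 9.42. All 4 lay at or above the 89.8th percentile of the young list. In the aged list H2ac7, H2ac8 and H2ac15 were at 49.7 to 51.3, and H3c11 at 69.96, the highest aged percentile of any member. Linker H1f3 had 19.5 and 3.51, H4c6 had 27.1 and 6.30, and H3c2 had 10.6 and 3.03. H4c2, with 6.82 and 2.35, and H3c15, with 5.72 and 2.45, were the weakest.
Of 29 pairs at ends of the 63 canonical histone genes, these 9 were members, 0 met the mirror rule and 27 ranked higher in the young list. The 9 became 2 where pairs had to overlap by 50% of both regions, and 5 at the adverse Poisson limits. The median gap was 8.00 points, beside 1.08 over all gene-end pairs, of which 67.7% ranked higher in the young list. Neighbours differed widely. H1f5 had folds of 62.2 and 12.8 and a gap of 17.7, and H2bc22 had 95.4 and 23.5 and a gap of 10.9. H2ac6, in contrast, had 79.5 and 57.7, with a gap of -0.51. H1f4 had 64.4 and 36.9, with a gap of 2.00. Percentiles are compressed at the top of the lists, so strong regions can differ much in fold and little in rank. The 9 members had a median fold of 27.1 in the young and 5.05 in the aged list, and the 20 others 57.0 and 25.7. The members were thus the weaker group in both lists, and the rule selects on these values. Histone genes are similar in coding sequence, and the handling of reads that map to several places was not given, so the split between copies is uncertain.

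**Figure D4:**
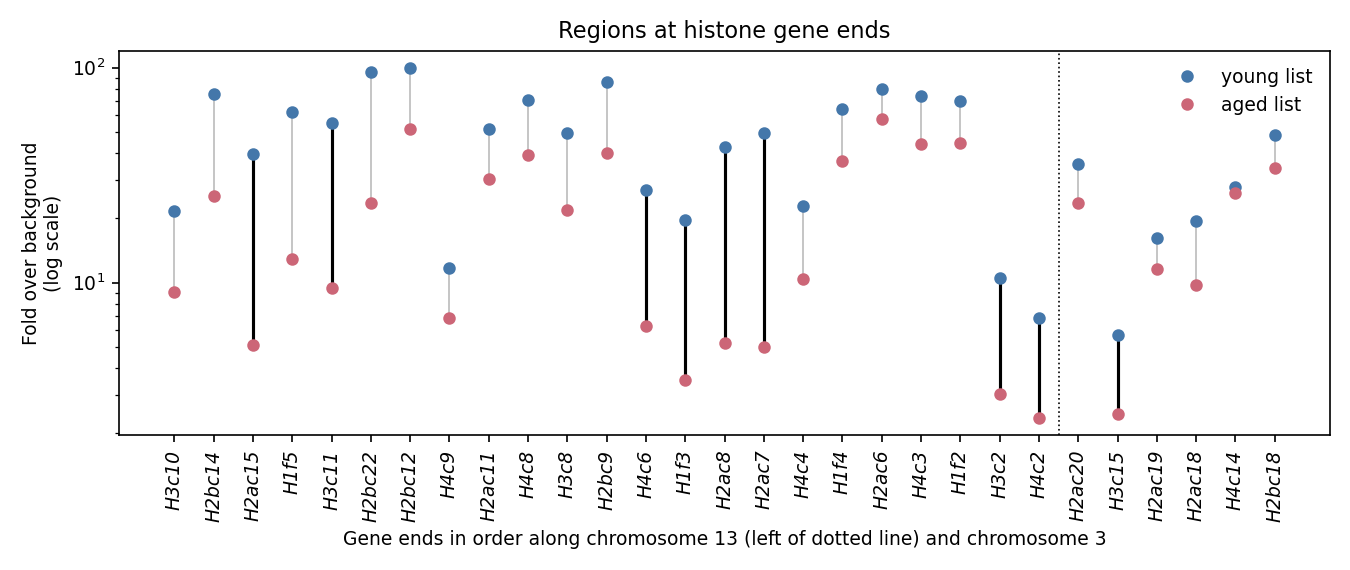
Fold over background (log scale) of the regions at histone gene ends in the young and aged lists, in order along chromosome 13 and chromosome 3; black lines join the 9 members and grey lines the other 20. H2ac7 and H2ac8 stand at 49.7 and 42.6 in the young and 5.05 and 5.24 in the aged list, and H2ac6 and H1f4 at 79.5 and 64.4 and at 57.7 and 36.9.

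Genes of myogenic commitment and fusion had the highest share of members among the 24 gene lists. Each pair was assigned to the protein-coding gene with the nearest end within 100 kb, which placed 68025 pairs, 4550 of them members, a background of 6.69%. The mirror rule was met by 2413 of the assigned pairs, a background of 3.55% for counts of the mirror kind. A gene had at least 1 member in 23.2% of the 15089 genes with a pair. For genes of myogenic commitment and fusion, 17 of 129 pairs were members (13.2%, 7.87 to 20.3), at 12 of 25 genes. Their median gap was 3.50 points, beside 0.60 over all genes. Among pairs of a young fold of at least 5 and a young percentile under 80, a range that holds nearly all members, the list had 27.4% (16.9 to 40.2) and all genes 14.6%. With the pileups at their adverse Poisson limits, 0 of the 129 pairs, and so none of the 17 members, kept a gap of 20 points. Of all 68025 assigned pairs, 481 (0.707%) did, a share at which few would fall among 129. Myh3, the embryonic myosin heavy chain, had 4 members of 10 pairs, with young folds of 7.22 to 13.8 and aged folds of 2.79 to 4.57. Pairs of the same gene, and members beside each other, are not independent, so the intervals of this and the other gene lists are too narrow. Mef2c, a factor that acts with the MyoD family, had 2 of 5, the stronger at 16.4 and 4.81. The only pair assigned to Actc1, the cardiac actin also made in embryonic muscle, was a member, with 5.77 and 2.21. So was the only pair of Mymk, the fusion protein myomaker, with 5.63 and 2.88. Musk, the kinase of the neuromuscular synapse, had 1 of 22. Members were spread over structural, fusion and regulatory genes.
Genes of the mature fibre had 10 members of 81 pairs (12.3%, 6.08 to 21.5) at 9 of 23 genes. Within the same range the share was 18.9%, with an interval of 9.44 to 32.0 that holds the 14.6% of all genes. A site near Pvalb, the calcium buffer of fast fibres, had folds of 15.9 and 3.32 and a gap of 46.6. The gene end of Tnnc2, fast troponin C, had 6.43 and 2.07. Further gene-end members of muscle genes, named after the values were seen and with no count read from them, are Xirp1 (9.51 and 2.79), Klhl40, which stabilises thin filament proteins (6.38 and 2.55), Cav3, the muscle caveolin (8.45 and 2.93), and Dok7, which activates Musk (13.1 and 3.94). The folds of these gene ends lay below those of the strongest histone members and beside those of H3c2, H4c2 and H3c15.

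Cell cycle genes had 16 members of 139 pairs (11.5%, lower limit 6.72) at 9 of 34 genes, with a median gap of 3.54. Assigned by nearest start site of the promoter table in place of gene end, they had 5 of 77 (6.49%), beside 6.55% of all, so the excess depends on how sites are tied to genes. No member was at a gene end of this list. Cdk6, a kinase of G1 entry, had 4 of 18 pairs, with young folds of 6.03 to 12.7. Ccne1, cyclin E, had 3 of 11, and its largest gap, 49.5 points, had folds of 7.13 and 1.87. A site inside E2f8, a repressor of the E2F family, had 7.48 and 1.97 and a gap of 50.5. For senescence and p53 genes the share was 8.82% (15 of 170), with an interval of 5.02 to 14.1 that holds the background. Igfbp3, a carrier of IGF, had a gene-end member with 10.2 and 3.03.

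**Figure D5:**
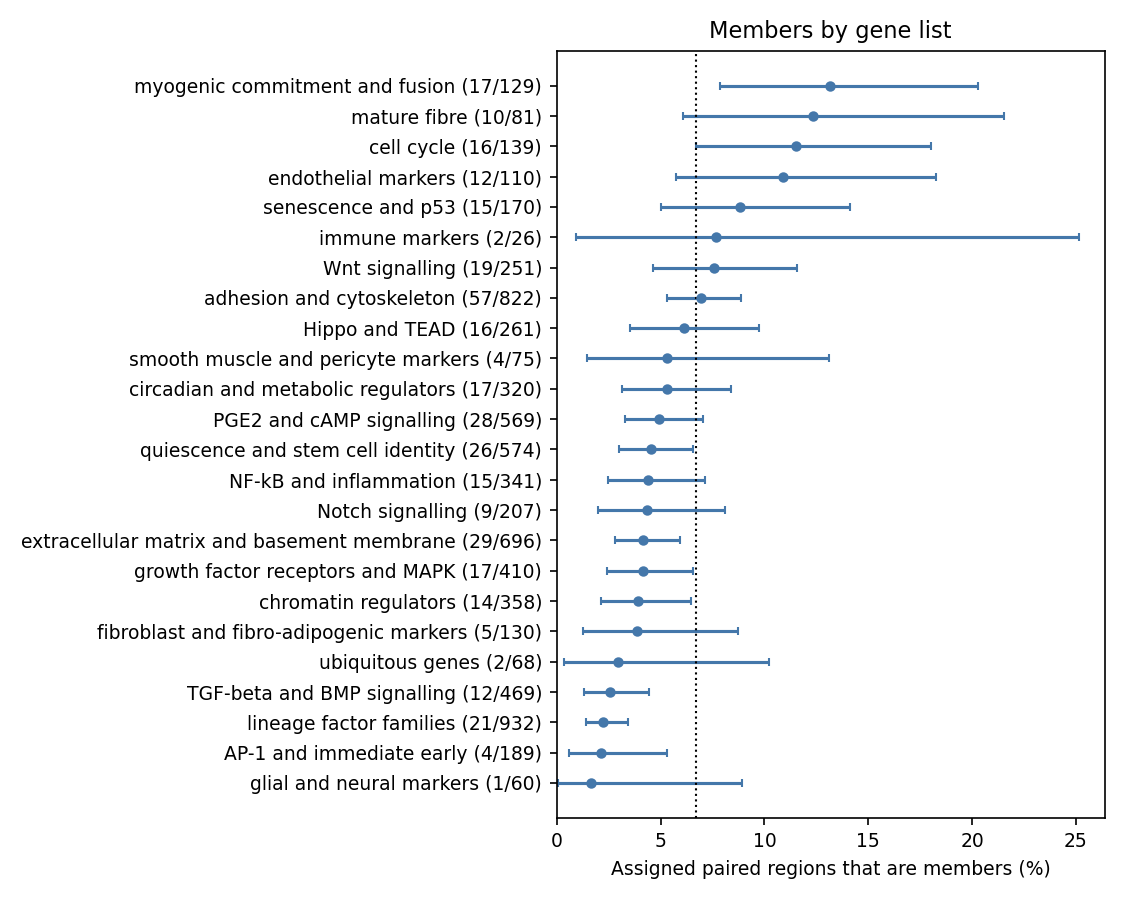
Share of assigned paired regions that are members (%) for each gene list, with exact 95% intervals over regions and counts in brackets; the dotted line is the 6.69% of all genes. Of the 24 lists shown, which leave out the histone genes, myogenic commitment is highest at 13.2%, and the lineage factor families and immediate early genes are among the lowest at 2.25% and 2.12%.

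At the low end stood factors of the enhancer and stress response. Immediate early and AP-1 genes had 4 members of 189 pairs (2.12%, 0.580 to 5.33), and 5.26% in that range, beside 14.6% of all genes. The 4 were at Ier5 (9.99 and 2.74), Dusp6, a phosphatase of ERK (6.25 and 2.59), Klf4 (8.89 and 3.89) and the gene end of Fosl2 (5.11 and 2.74). None was assigned to Fos, Jun or Egr1, whose own numbers of pairs are not given here, so this absence is not read as a result. A list of lineage factor families (RUNX, NFI, EBF, TCF and others) had 21 members of 932 pairs (2.25%, 1.40 to 3.42) and 55 of the mirror kind (5.90%), with a median gap of -2.10. Members among them included sites inside Nfib (10.9 and 2.98), Sox5 (11.7 and 3.32) and Cbfb (8.58 and 3.17). Genes of TGF-β and BMP signalling had 12 of 469 (2.56%) and 26 of the mirror kind (5.54%), and a site nearest to Smad1 had 9.24 and 2.40.

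Quiescence and stem cell identity genes had 26 members of 574 pairs (4.53%, 2.98 to 6.57) at 15 of 41 genes. Among pairs of a young fold of at least 5 and a young percentile under 80, the share was 10.5% (6.99 to 15.0). That interval holds the 14.6% of all genes in this range. Pax7, the factor that marks these cells, had 1 of 42, inside the gene at chr4:139747071-139747768, with folds of 9.51 and 2.69 and a gap of 45.6. Calcr, the calcitonin receptor of quiescent cells, had 2 of 12, with young folds of 5.85 and 5.99. Foxo3, a quiescence factor, had 3 of 29. Tcf7l2, an effector of Wnt signalling, had 4 of 21, the largest gap being 46.7. Notch genes had 9 of 207 (4.35%), among them sites inside Notch1 (8.32 and 3.03) and Rbpj, its nuclear partner (5.37 and 2.26). Wnt genes had 19 of 251 (7.57%). The Notch interval, 2.01 to 8.09, and the Wnt interval, 4.62 to 11.6, both hold the background of 6.69%. Of the quiescence and identity pairs, 19 (3.31%) met the mirror rule, near the 3.55% of all assigned pairs.

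Genes of PGE2 and cAMP signalling, the pathway of the agent that both lists share, had 28 members of 569 pairs (4.92%, 3.29 to 7.03) at 18 of 55 genes, and 33 of the mirror kind (5.80%). The members' interval holds the background of 6.69%. Among pairs of a young fold of at least 5 and a young percentile under 80, the share was 11.3% (7.63 to 15.9), beside 14.6% of all genes. The members named next are therefore examples and not a result about the pathway. No receptor gene of PGE2 had a member, but their number of pairs is not given here, so this absence cannot be set against the background. Ptgs1, the cyclooxygenase of an early step of PGE2 synthesis, had 1 of 4 (6.56 and 3.03). Most of the others act downstream of the receptors. Phosphodiesterases, which break down cAMP, included Pde8a (3 of 11, the largest gap at 7.97 and 2.31), Pde4a (9.55 and 2.93) and Pde4d (10.2 and 3.03). Regulatory subunits of protein kinase A included Prkar2b (2 of 13, the larger gap at 7.22 and 2.11) and Prkar1a (8.01 and 2.59). Sik1, a kinase gene induced by CREB, had a site at 7.88 and 2.31. Extracellular matrix genes had 29 of 696 (4.17%). Of these, 5 were among the 15 pairs of Tnc, for the injury matrix protein tenascin C. One of the 5 was among the 10 highest young folds, at 43.5 and 8.79, and another had a gap of 60.3, at 12.5 and 2.40. Adhesion and cytoskeleton genes had 57 of 822 (6.93%), near the background.

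For markers of other cell types the shares varied. Endothelial markers had 12 of 110 (10.9%, 5.77 to 18.3), among them the gene end of Kdr, the VEGF receptor (8.01 and 2.69). Fibroblast markers had 5 of 130 and smooth muscle and pericyte markers 4 of 75. Immune markers had 2 of 26, at Ikzf1 and Cx3cr1, and glial and neural markers 1 of 60. Ubiquitous genes had 2 of 68. For each of these lists the interval held the background of 6.69%, and a share near the background is not a result about the list. Gene ends of developmental factors of other lineages, named after the values were seen and with no count read from them, include Barhl2 (5.72 and 1.92), Lhx2 (7.79 and 2.74) and Msx2 (7.09 and 2.84).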

How the data were processed

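ATAC-seq regions of muscle stem cells given PGE2 were compared between 2 lists in narrowPeak layout, 1 young and 1 aged. Per the submitters' processing notes, Bowtie2 and the build mm10 (GRCm38) were used. The names of the lists give MACS as the caller. Not given in the sources used here are its version and options, the removal of duplicates, a shift of reads to cut sites and the pooling of libraries. Each summit's enrichment over background is a fold ratio that the authors deposited. Each summit's −log10 q-value is likewise the authors' value; it belongs to the peak and not to a comparison of ages. The deposited summit offset is in bp from the row start. All folds (100%, tolerance 0.01) were whole multiples of 1 step per list, which gave uniform backgrounds of 21.7 and 19.8 fragments and hence each pileup. That the counted unit is a fragment is an assumption, since the options of the caller are not given.

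Merging gave 131656 regions from 265507 young rows, and 117284 from 215838 aged rows. Percentiles used mean ranks over pairs. Pairing and ranking were tested on simulated lists. Gene ends and start sites came from RefSeq tables of GRCm38.p6, which give spans for protein-coding genes and sequences of 250 bases before to 50 after a start; no exons were used, and start-site measures leave out chromosome 18. No genome sequence was used, so sequences of distal regions are not analysed here. Intervals are exact Clopper-Pearson and Poisson limits at 95%. Analyses used Python 3.11.15, pandas 2.3.3 and scipy 1.17.1. No test between ages was run.

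The members and the 24 gene lists were chosen with earlier results of these data known. Named regions followed rules of largest gap (15), highest young fold (10), largest gap at gene ends (10), up to 3 per list, genes with most members (8), largest runs (5) and pairs at the thresholds; exceptions are named as chosen after their values were seen, and some named regions are not reported here. Alternatives covered the thresholds, the ranking measure, pairing, merging, counting error, gene windows and gene assignment; gene-list and histone alternatives were added after seeing the data.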

Additional observations from a re-analysis of the deposited data

How the results depend on the processing

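No paired analysis was possible because each age has 1 list with no value per library. The number of members was 7877 with a gap of 15 points, 2068 with 30 points, 1186 with a young fold of at least 10 and 564 at the adverse Poisson limits of the pileups. As a share of pairs these were 9.70%, 2.55%, 1.46% and 0.694%. The share was 7.85% with a young fold of at least 3, 5.73% ranked by width, 8.44% ranked among all regions, 5.05% with 50% reciprocal overlap, 6.62% with summits within 100 bp and 7.02% from rows of −log10 q of at least 5. The gene-end share was 10.7% with 30 points, 11.7% with a fold of 10, 13.5% at the Poisson limits, 7.38% with a 500 bp window and 16.3% with 2.5 kb. The inside-gene share was 46.0% with a fold of 10, 48.4% at the Poisson limits and 46.3% with 2.5 kb. The share followed by a member was 19.4% with 15 points, 8.95% with 30, 6.49% with a fold of 10, 10.2% by width, 16.9% among all regions, 11.8% with reciprocal overlap and 5.14% at the Poisson limits; it falls with the share of members itself. The median gap was 23.1, 35.8, 26.6, 26.2, 29.0, 28.3, 26.2, 27.3 and 24.3 points with 15 points, 30 points, a fold of 3, a fold of 10, by width, among all regions, with reciprocal overlap, near summits and at the Poisson limits. The other 38 values stayed within the interval or 1.5 times of those reported. They include ranking by fold, which returned every value unchanged. With a uniform background per list the q-value follows the fold, so that setting is no check. It is also counted among the settings that follow. Over 15 settings added after seeing the data, the myogenic list lay above all genes in 14, the exception being the Poisson limits (0%), the fibre list in 15, the cell cycle list in 14, the exception being start-site assignment (6.49%), and the immediate early and factor-family lists lay below in 15 each. Histone gene-end members numbered 2 with reciprocal overlap and 5 at the Poisson limits, beside 9.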
